A study of Bos taurus with 40 samples.

Results

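Glycogen, the branched glucose store of animal cells, is built and broken down by a small set of enzymes and regulators, and 9 of their genes are described here across cattle tissues: GYG1, GYS1, GYS2, GBE1, PYGM, PYGL, PHKG1, PPP1R3A and PPP1R3C. The members were chosen by symbol from what the proteins do, with earlier results of these data known. All 9 of 9 had a row among the 13570 genes of the count tables. They also passed the requirement of at least 1 read in at least 1 sample, which 13148 genes met. RNA-seq was performed on the pituitary gland, the longissimus dorsi muscle, the liver and abdominal fat of 10 Korean cattle, 5 cows and 5 bulls, giving 40 samples with 1 library per animal and tissue and 5 animals in each of the 8 groups of sex and tissue. The animals received no stated treatment and were older than 22 months at slaughter, and each library held RNA of a single animal. The study asked which genes differ between the sexes in metabolic tissues and in the gland that controls them.

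Glycogen synthesis starts on glycogenin (GYG1), a protein that glucosylates itself. Glycogen synthase then lengthens the chains, with GYS1 encoding the muscle form and GYS2 the liver form, and the branching enzyme (GBE1) adds the branch points. Breakdown runs through glycogen phosphorylase, encoded by PYGM in muscle and PYGL in liver, which phosphorylase kinase switches on (PHKG1 encodes its muscle catalytic subunit). Protein phosphatase 1 reverses these phosphorylations once a targeting subunit such as PPP1R3A or PPP1R3C brings it to the glycogen particle. Muscle uses its glycogen for contraction, whereas liver releases glucose into the blood.

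Between 5173092 and 19165864 reads were assigned to named genes per sample (median 10005607). Levels are given as CPM, read counts scaled to the size of the library and to TMM factors (trimmed mean of M-values) over the 40 samples. The CPM of different members were not compared with each other, since no gene lengths of the build were used. Defining markers followed the tissue labels, the summed CPM of 6 hepatocyte markers being 133089 to 304933 in liver and at most 1881 elsewhere, and that of 6 skeletal muscle markers 101897 to 180891 in muscle and at most 1462 elsewhere. The liver library labelled bull 3 held 8694 XIST reads and 0 USP9Y reads, against the labelled sex, and its nearest liver library was that of cow 4. The chi-square distance between the read counts of this pair was 15.8 per gene. It was 45.8 for the next liver pair, with a median of 117 over the 45 liver pairs. Whether the 2 libraries come from a single animal was not tested. USP9Y was at 1.78 CPM in the fat library of bull 5 and at 28.1 to 34.1 in fat of the other bulls. With the liver library of bull 3 or the fat library of bull 5 left out, the same members were called in each of the comparisons below that used it. In bulk tissue, fewer cells of a type and less RNA per cell cannot be told apart.

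The first question was in which tissue each gene was used. GYG1, PYGM, PHKG1 and PPP1R3A were highest in muscle, PYGL and GYS2 were highest in liver, PPP1R3C was high in both, and GBE1 was present at similar levels in every tissue but fat. Differences between tissues were tested with the edgeR quasi-likelihood test over the 40 samples with sex as a covariate, and a gene was called at an adjusted p under 0.05 together with at least a 2-fold difference. Of 54 tests of a member between 2 tissues, 40 were called. Of the 9 members 7 were called between muscle and liver (46.4% of all genes were), 8 between muscle and fat (43%), 6 between muscle and pituitary (47.8%), 8 between liver and fat (47.4%), 5 between liver and pituitary (48.3%) and 6 between fat and pituitary (47%).

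**Figure D1:**
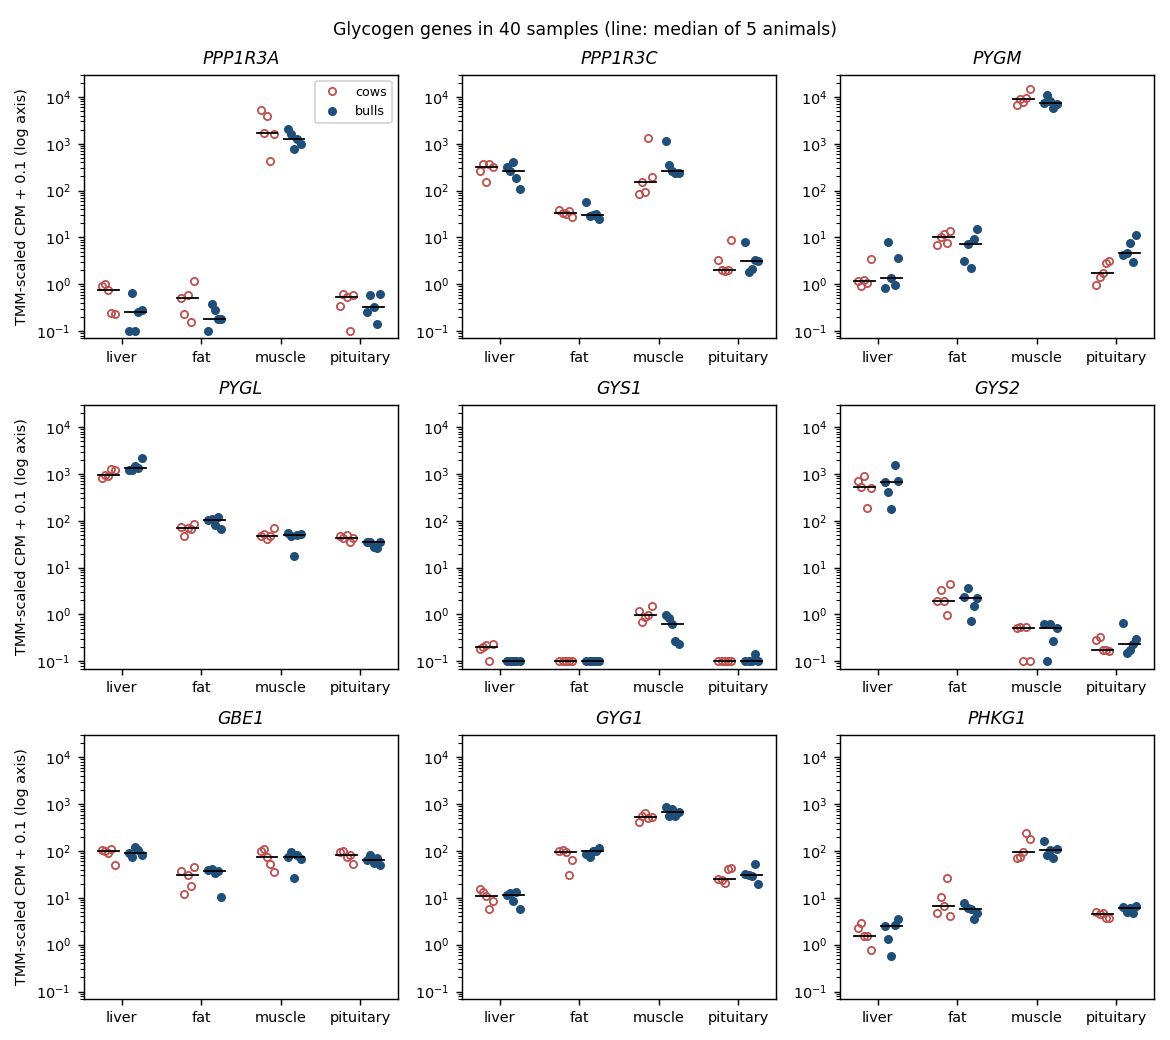
TMM-scaled CPM plus 0.1 (log axis) of the 9 glycogen genes in liver, fat, muscle and pituitary, 1 point per animal (open: 5 cows, filled: 5 bulls) with a line at the median of each group of 5. PYGM and PPP1R3A in muscle and GYS2 and PYGL in liver sit above every sample of the other tissues, while GBE1 overlaps between tissues.

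Among the synthesis genes, GYG1 was highest in muscle, at 422 to 871 CPM (median 564, mean 610 ± 134, SD, n = 10). It fell stepwise through fat (29.9 to 118, median 96.3) and pituitary (19.7 to 52.8, median 30) to liver (5.62 to 15.1, median 11.2). Each step of this order passed the test: muscle exceeded fat by 2.82 on the log2 scale (SE 0.20, adjusted p = 6.24e-15), fat exceeded pituitary by 1.43 (SE 0.20, adjusted p = 7.63e-08) and pituitary exceeded liver by 1.59 (SE 0.21, adjusted p = 9.01e-09). Muscle and fat did not overlap, nor did pituitary and liver, whereas fat and pituitary overlapped through the fat of cow 4 (29.9 CPM).

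GYS2, the liver glycogen synthase, ranged from 181 to 1580 CPM in liver (median 593, mean 635 ± 403, SD, n = 10). Fat held 0.641 to 4.33 CPM (median 1.98), and liver exceeded fat by 8.14 on the log2 scale (SE 0.34, adjusted p = 3.94e-20). All fat samples lay above all muscle samples, where 0 to 5 reads were counted per library (20 in all). Fat exceeded muscle by 2.96 (SE 0.54, adjusted p = 1.23e-06). In the pituitary 1 to 7 reads were counted per library, and muscle and pituitary did not pass the test (log2 difference 0.75, SE 0.65, adjusted p = 0.295). Within liver the lowest values belonged to the libraries labelled bull 3 (181 CPM) and cow 4 (185), the closest liver pair, and the highest to bull 4 (1580). GYS2 thus varied 8.71-fold among libraries of the same tissue.

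For GYS1, the muscle form of the same enzyme, the count tables held almost no reads in any tissue. In muscle the cows had 8, 7, 6, 6 and 11 reads and the bulls 5, 7, 2, 1 and 1, and the other 30 libraries together had 5 reads, 4 of them in cow livers. Outside muscle every library was below the 3 reads that a count of 0 still allows, so no fold change is given, although muscle was called above liver, fat and pituitary. The row of GAPDH, a glycolytic gene that nearly every cell uses, behaved likewise, with 0 to 2 reads per library, and whether reads of these genes were lost before counting was not tested.

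GBE1, the branching enzyme, was the member that varied least between tissues. Its level was 50 to 120 CPM in liver (median 96.5), 48.9 to 98.5 in pituitary (median 72), 25.9 to 111 in muscle (median 73.5) and 10.2 to 46.5 in fat (median 35.4). Liver and pituitary did not differ beyond their spread (log2 difference 0.38, SE 0.24, adjusted p = 0.162), nor did pituitary and muscle (0.00, SE 0.24, adjusted p = 1). Fat was lower than muscle by 1.23 (SE 0.24, adjusted p = 2.59e-05), although the ranges overlapped, and that difference fell under 2-fold, to 0.98, without bull 5.

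Of the phosphorylases, PYGM reached 5783 to 14425 CPM in muscle (median 8006, mean 8724 ± 2541, SD, n = 10), and muscle exceeded fat, the next tissue, by 9.97 on the log2 scale (SE 0.38, adjusted p = 1.81e-19). Fat held 2.11 to 15.1 CPM (median 8.37), pituitary 0.884 to 11.2 (median 2.99) and liver 0.715 to 7.88 (median 1.1). Fat was above pituitary by 1.24 (SE 0.39, adjusted p = 0.00685), and in 8 of 10 animals, but the ranges overlapped and the difference was 0.28 (adjusted p = 0.695) in bulls alone. Pituitary and liver were not called (log2 difference 0.87, SE 0.41, adjusted p = 0.0634), although with the animal as a block the pituitary was called higher, the liver minus pituitary difference being -1.02 (adjusted p = 0.0199), as it was without cow 5 (-1.01, adjusted p = 0.04) or bull 2 (-1.29, adjusted p = 0.0087).

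The low PYGM signal outside muscle was set beside that of ACTA1, the skeletal muscle actin. In muscle, PYGM had 79.9 to 222 reads per 1000 ACTA1 reads (median 138). In liver the ratio was 113 to 520 (median 176) and lay within the muscle range in 8 of 10 samples. In fat it was 228 to 6000 (median 805), above the muscle range in all 10 samples, and in the pituitary 195 to 857 (median 647), above it in 9 of 10. The part of muscle-derived RNA in these levels was not tested further.

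**Figure D2:**
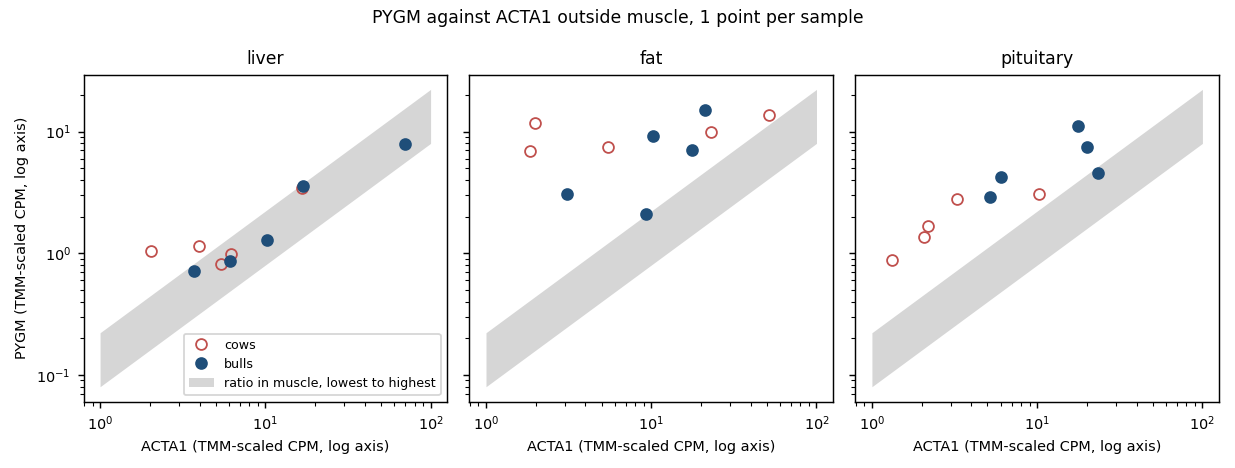
PYGM against ACTA1, both in TMM-scaled CPM on log axes, in liver, fat and pituitary, 1 point per sample (open: cows, filled: bulls), with the grey band spanning the PYGM to ACTA1 ratio of the 10 muscle samples. Of the liver samples 8 lie inside the band, whereas all 10 fat samples and 9 pituitary samples lie above it.

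PYGL, the liver phosphorylase, was found at 817 to 2174 CPM in liver (median 1211, mean 1255 ± 378, SD, n = 10), above every sample of every other tissue. Fat followed with 48.2 to 121 CPM (median 76.2), 3.93 lower on the log2 scale (SE 0.19, adjusted p = 4.01e-20). Muscle held 17.2 to 70.9 CPM (median 48.5) and pituitary 26.4 to 49 (median 35.8). Fat exceeded muscle by 0.77 (SE 0.19, adjusted p = 0.000608), under the 2-fold limit, and muscle and pituitary did not differ beyond their spread (0.34, SE 0.19, adjusted p = 0.117). Per 1000 reads of albumin (ALB), PYGL had 6.3 to 18.5 reads in liver and at least 613 in each muscle, fat and pituitary sample. For GYS2 the ratio to ALB was 0 to 154 in muscle (median 7.76) and 2.31 to 45.8 in pituitary (median 7.06), on at most 7 reads per library, beside a median of 6.09 in liver, while in fat it was 25 to 188 (median 72.4), above the 1.16 to 12.2 of every liver sample.

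Of the regulators, PHKG1 was at 71.2 to 243 CPM in muscle (median 98.8, mean 119 ± 57.4, SD, n = 10), 3.92 above fat on the log2 scale (SE 0.29, adjusted p = 9.86e-14). Fat held 3.45 to 26.3 CPM (median 5.88), pituitary 3.56 to 6.65 (median 4.73) and liver 0.483 to 3.49 (median 1.79). Fat and pituitary were not called (log2 difference 0.65, SE 0.30, adjusted p = 0.058), and pituitary exceeded liver by 1.36 (SE 0.32, adjusted p = 0.000306) without overlap. In the RefSeq annotation of another assembly (ARS-UCD2.0), 95.4% of PHKG1 is overlapped by SUMF2, a gene unrelated to glycogen. The counting of strand is not given in the sources used here. SUMF2 was at 3.43 to 6.49 CPM in muscle, where PHKG1 was highest, and at 8.04 to 19.3 in pituitary. Its liver minus pituitary difference was -0.93 (SE 0.228, edgeR quasi-likelihood test, adjusted p = 0.00047), under the 2-fold limit and in the same direction as that of PHKG1. The part of SUMF2 reads in the PHKG1 levels was not tested. PYGL overlaps ABHD12B over 25.8% of its length, a gene with no row in the count tables.

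PPP1R3A, which carries protein phosphatase 1 to glycogen in skeletal muscle, was read 2933 to 37576 times per muscle library and at most 14 times in any other. Its muscle level was 433 to 5183 CPM (median 1592, mean 1968 ± 1488, SD, n = 10), and muscle exceeded liver by 12.39 on the log2 scale (SE 0.51, adjusted p = 2.97e-22). Liver, pituitary and fat, with highest values of 0.919, 0.53 and 1.1 CPM, did not differ beyond their spread (liver over pituitary 0.10, adjusted p = 0.901, and pituitary over fat 0.28, adjusted p = 0.661).

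PPP1R3C, a targeting subunit found in many tissues, had a different pattern. Muscle (83.9 to 1351 CPM, median 235) and liver (106 to 403, median 292) overlapped and did not pass the test (log2 difference 0.56, SE 0.38, adjusted p = 0.205), with muscle above liver in 5 of 10 animals. Fat (24.6 to 57.8 CPM, median 31.3) was below every liver sample, by 3.03 on the log2 scale (SE 0.38, adjusted p = 2.34e-08). Pituitary (1.71 to 8.89, median 2.53) was below every fat sample, by 3.26 (SE 0.39, adjusted p = 8.21e-09). Within muscle PPP1R3C varied 16.1-fold and PPP1R3A 12-fold among the 10 animals, whereas PYGM varied 2.49-fold and GYG1 2.06-fold.

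Counted by comparison, 5 members were called higher in muscle than in liver (24.8% of all genes were) and 2 higher in liver (21.6%). Against fat, 7 were higher in muscle (19.1% of all genes) and 1, GYS2, was lower (23.8%). Against pituitary, 6 were higher in muscle (22.6%) and 0 lower (25.2%), with 0 lower at an unadjusted p under 0.05 by the quasi-likelihood test and 0 called lower by DESeq2. Liver exceeded fat for 5 members, GYS1 with its 4 liver reads among them and not called by DESeq2 (21.2%), and was below it for 3, PYGM, GYG1 and PHKG1 (26.2%). Liver exceeded pituitary for 3 (21.1%) and was below it for 2, GYG1 and PHKG1 (27.1%). Fat exceeded pituitary for 5 (22.7%) and was below it for 1, GBE1 (24.3%). Over the 8 members other than GYS1 the median log2 difference was 3.20 between muscle and liver (0.11 over all genes), 3.20 between muscle and fat (-0.13) and 4.41 between muscle and pituitary (-0.03). It was 0.99 between liver and fat (-0.13), 0.24 between liver and pituitary (-0.12) and 1.18 between fat and pituitary (-0.02).

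The partners of these genes on the listed pathways were also divided between tissues. Of 4 further genes for synthesis and its substrates, 3 were called between liver and fat, where 47.4% of all genes were. UGP2, which makes UDP-glucose, was higher in liver by 2.65 on the log2 scale (SE 0.26). The hexokinases HK1 (-2.14) and HK3 (-1.33) were lower. Of 5 further genes for breakdown and glucose release, 2 were higher in liver than in fat (21.2% of all genes were) and 2 lower (26.2%). G6PC, the glucose 6-phosphatase that lets liver release glucose, was at 420 to 1623 CPM in liver and at most 1.39 elsewhere (liver over fat 9.77, SE 0.29). PYGB, the brain phosphorylase, was highest in pituitary, at 108 to 215 CPM against 3.51 to 35.3 in the other tissues.

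Among 5 other phosphorylase kinase genes, CALM3 was higher in muscle than in fat by 2.96 (SE 0.19), while PHKG2, the catalytic subunit of liver and testis (-1.17, SE 0.20), and PHKA2, the liver regulatory subunit (-1.06, SE 0.24), were lower. Of 6 genes of protein phosphatase 1 and its other glycogen partners, EPM2A, which encodes the glycogen phosphatase laforin (4.13, SE 0.17), PPP1R3F (2.52, SE 0.30) and the catalytic subunit PPP1CB (1.91, SE 0.18) were higher in muscle than in liver. PPP1R3B, the liver targeting subunit, was lower by 2.90 (SE 0.25), with 80.6 to 279 CPM in liver and at most 37.6 elsewhere. Of 11 kinases of glycogen synthase and AMPK subunits, 6 were higher in muscle than in liver (24.8% of all genes were) and 0 lower by 2-fold (21.6%). PRKAG1 was nevertheless lower by 0.79 on the log2 scale (edgeR quasi-likelihood test, adjusted p = 4.83e-06). PRKAG3, the muscle regulatory subunit of AMPK, was at 35.3 to 285 CPM in muscle and had 0 to 2 reads per liver library, below what a count of 0 still allows, so no fold change is given. PRKAB2, another AMPK subunit, was higher in muscle by 3.27 (SE 0.33). Of 19 glycolysis genes, 8 were higher in muscle than in fat (19.1% of all genes were) and 8 lower (23.8%). The largest differences were those of PGAM2 (9.82, SE 0.29), ENO3 (7.94, SE 0.27), PFKM (7.69, SE 0.20) and PKM (4.10, SE 0.22).

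**Figure D3:**
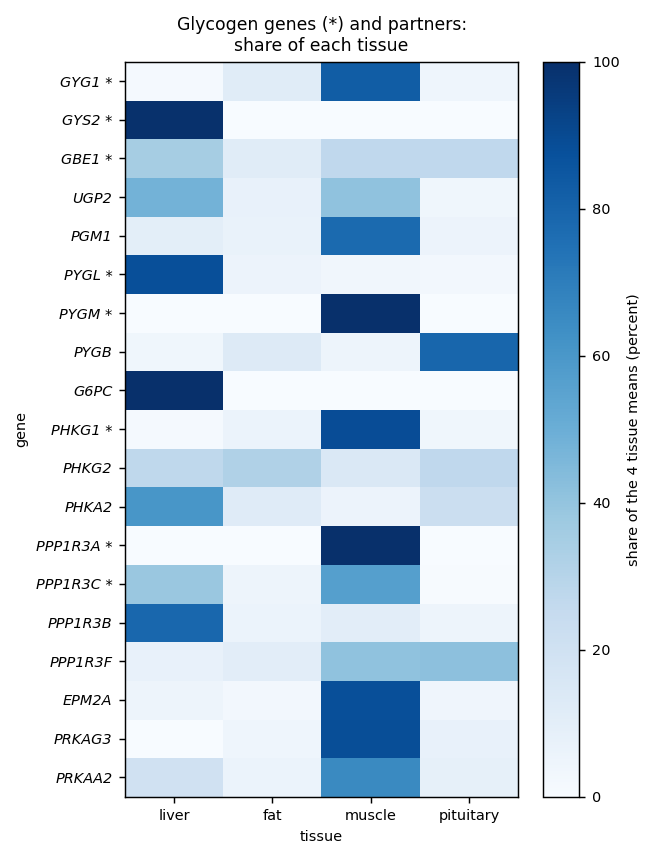
Share of each tissue in the sum of the 4 tissue means of TMM-scaled CPM (percent, shade) for 8 glycogen genes (marked *, GYS1 left out for its few reads) and 11 partner genes in rows. Muscle holds most of the sum for GYG1, PYGM, PHKG1, PPP1R3A and PRKAG3, liver for GYS2, PYGL, G6PC and PPP1R3B, and pituitary for PYGB.

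The genes whose log2(CPM + 1) followed a member most closely were sought over the 40 samples, and since all points share their 4 tissues these correlations are descriptive. PPP1R3A was followed by LMOD3 (Pearson's r = 0.996), ATP1B4 (0.994) and TXLNB (0.993), and PYGM by ACTN3 (0.994), LDB3 (0.991) and ENO3 (0.99). GYG1 was followed by FHL1 (0.972) and DOK5 (0.967), and PHKG1 by SPATA2 (0.968), DLGAP4 (0.965) and BIN1 (0.964). Of the liver genes, PYGL was followed by FGG (0.979) and F5 (0.978), and GYS2 by ORM1 (0.989), G6PC (0.987) and CREB3L3 (0.987). PPP1R3C was followed less closely by NCK2 (0.934), AGXT2L1 (0.916) and LOC782922 (0.914), and GBE1 by SMCHD1 (0.884), STAM2 (0.879) and ENTPD4 (0.872). For GYS1 the 3 nearest were MYH1 (0.922), YTHDF1 (0.911) and UCP3 (0.91), over few reads.

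The second question was whether these genes were sexually dimorphic. The sexes were compared within each tissue with the edgeR likelihood ratio test, and a gene was called at an adjusted p under 0.05. Of 36 tests of a member in a tissue, 1 was called, PYGM in the pituitary. The values of cows and bulls overlapped in all 36, among them GYS1 in fat, which had 0 reads in every library. The share of all genes without overlap was not computed, so this count does not set the members apart. No member was called in liver (0.175% of all genes were), fat (0.114%) or muscle (0.517%), and 1 of 9 was called in pituitary (0.745%). With 1 animal left out the liver share was 0.0761% to 1.42% (highest without cow 4, and 0.464% without the library labelled bull 3) and the muscle share 0.19% to 4.21% (highest without cow 4). The share for fat lay between 0.038% and 0.167%, and that for pituitary between 0.411% and 1.76% (highest without cow 5). An unadjusted p under 0.05 was reached by 2 members in liver (PPP1R3A and GYS1, beside 7.45% of all genes), by 0 in fat (6.88%) and in muscle (11%), and by 2 in pituitary (PYGM and PYGL, 9.27%). By the quasi-likelihood test 0 members were called in any tissue, and by DESeq2 1 was, in the pituitary.

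**Figure D4:**
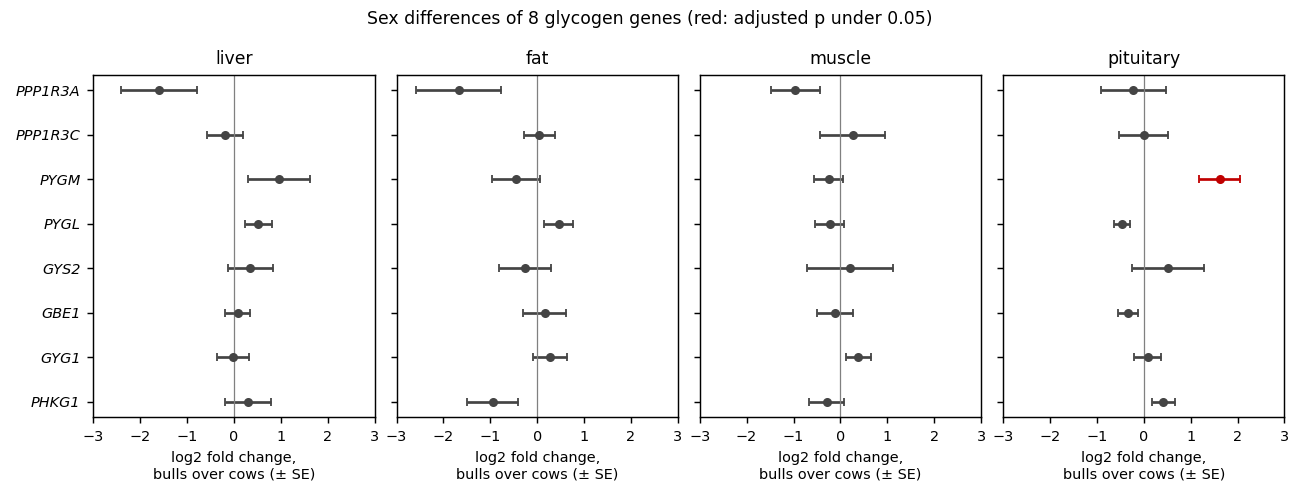
Log2 fold change of bulls over cows with its standard error (horizontal axis) for 8 glycogen genes (rows) in each of 4 tissues, 5 cows and 5 bulls per tissue, red where the adjusted p was under 0.05. The sole red point is PYGM in the pituitary at 1.62, and the other estimates lie between -1.67 and 0.96.

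PYGM in the pituitary was at 0.884, 1.35, 1.67, 2.81 and 3.08 CPM in the cows and at 4.2, 4.54, 7.41, 2.91 and 11.2 CPM in the bulls. The bulls lay above all cows except bull 4, which was below cow 5, and bull 5 was the highest. The difference was 1.62 on the log2 scale (SE 0.44, adjusted p = 0.0369, 3.08-fold), with an exact two-sided permutation p of 0.0159. It was not called by the quasi-likelihood test (adjusted p = 0.246), nor without cow 1, 2 or 3 or bull 3 or 5, where the adjusted p was 0.124 to 0.182.

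Muscle genes in the same pituitaries are given beside it. ACTA1 was at 1.33, 2.06, 2.17, 3.27 and 10.3 CPM in pituitaries of cows and at 6.06, 23.2, 19.9, 5.16 and 17.6 in those of bulls. The summed level of the 6 skeletal muscle markers was 10.7 to 76.6 CPM in cows (median 12.6) and 47.5 to 108 in bulls (median 69.6), with 0 of the 6 at 0 in either sex. Of these 6 markers 0 were called by sex (median log2 fold change 1.77, against 0.00 over all genes), and ACTA1 overlapped between the sexes. Of the fibre type lists, 1 of 7 fast and 2 of 6 slow genes were called, where 0.745% of all genes were. These were MYH2 (log2 fold change 2.34, SE 0.54, adjusted p = 0.0101), MYH7 (1.18, SE 0.28, adjusted p = 0.00837) and MYL2 (3.11, SE 0.79, adjusted p = 0.0277), all higher in bulls, though not called by the quasi-likelihood test (adjusted p = 0.146 to 0.242). Per 1000 ACTA1 reads PYGM had 300 to 857 reads in cows (median 667) and 195 to 693 in bulls (median 564). MYH1 had the lower median in bulls (0.485 CPM, against 1.71 in cows). It was at 7.83 CPM in the pituitary of bull 5 and at most 0.573 in that of the other bulls, and at 0.156 to 4.38 in cows. The part of muscle genes in the PYGM difference was not tested. CGA, the common alpha subunit of the gonadotropins and thyrotropin, was also called higher in bulls (1.84, SE 0.44, adjusted p = 0.0125), though not by the quasi-likelihood test (adjusted p = 0.242).

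PYGL in the pituitary lay in the other direction, at 46.6, 43.2, 49, 35.6 and 43.3 CPM in cows and at 34.6, 36, 26.8, 26.4 and 34.5 in bulls. The ranges overlapped through cow 4 and bull 2 alone. The log2 fold change was -0.46 (SE 0.18), with an unadjusted p of 0.00962 that did not pass the correction over all genes (edgeR likelihood ratio test, adjusted p = 0.291). In liver PYGL was at 817, 958, 923, 1288 and 1192 CPM in cows and at 1228, 1194, 1446, 1334 and 2174 in bulls, with a log2 fold change of 0.52 (SE 0.29, adjusted p = 0.747). In fat it was 0.46 (SE 0.31, adjusted p = 0.821) and in muscle -0.23 (SE 0.30, adjusted p = 0.862).

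PPP1R3A in muscle was at 5183, 1729, 3986, 433 and 1576 CPM in cows and at 2097, 1607, 786, 1278 and 1007 in bulls. Cows 1 and 3 were above all bulls and cow 4 was below all of them. The log2 fold change was -0.96 (SE 0.52, adjusted p = 0.509). In the model of sex and tissue over the 40 samples, in which 0 of 9 members and 1.69% of all genes were called, the PPP1R3A difference was -1.02 (SE 0.34, unadjusted p = 0.00221, adjusted p = 0.0773 by the edgeR likelihood ratio test). It was called without cow 4 (-1.27, adjusted p = 0.00146), which in this model means without any of the 4 tissues of that animal, when 5.22% of all genes were called. Of the members 2, PPP1R3A and GYS1, had an unadjusted p under 0.05 in this model, as 16.7% of all genes did, and 0 were called by the quasi-likelihood test or DESeq2. The model has no term for the animal, so the 4 tissues of an animal count as separate samples. The study itself reported PPP1R3A as significant in its own fit of sex and tissue, which called more genes than the fit here. Its qRT-PCR in cattle found a sex difference of PPP1R3A in muscle but not over the tissues.

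PPP1R3C in muscle showed the mirror image of this animal. It was at 83.9, 150, 93.9, 1351 and 192 CPM in cows and at 1130, 349, 264, 235 and 236 in bulls, so that cow 4 was the highest of all 10 animals while the other cows were below every bull. With all animals the log2 fold change was 0.26 (SE 0.70, adjusted p = 0.988). Without cow 4 it was 1.79 and was called (edgeR likelihood ratio test, adjusted p = 0.00995), when 4.21% of all genes were called in place of 0.517%. Without bull 1 it was -0.45 (adjusted p = 0.914). Leaving out an animal after its value was known does not give an independent test. Bull 1 was also the highest bull in fat (57.8 CPM against 24.6 to 31.6) and in pituitary (7.76 against 1.71 to 3.26).

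The muscle of cow 4 stood apart from that of the other cows in fibre type genes as well. MYH1, the fast IIx myosin heavy chain, was at 27790, 22031, 19796, 10310 and 32268 CPM in cows and at 1216, 488, 411, 369 and 563 in bulls (log2 fold change -5.20, SE 0.40, adjusted p = 8.27e-24), and cow 4 was the lowest cow. MYH7, the slow myosin heavy chain, was at 29546 CPM in cow 4 and at 1964 to 6298 in the other cows, against 6474 to 22527 in bulls. By sex in muscle, 2 of 6 slow fibre genes, 1 of 7 fast fibre genes (MYH1) and 1 of 6 blood and immune genes were called, where 0.517% of all genes were. The slow fibre genes MYL2 (1.86, SE 0.40, adjusted p = 0.00345) and TNNC1 (1.81, SE 0.43, adjusted p = 0.0224) were called higher in muscle of bulls, whereas MYH7 was not called. CD14, a monocyte gene, was called lower in bulls (-1.40, SE 0.34, adjusted p = 0.0233). None of MYL2, TNNC1 and CD14 was called by the quasi-likelihood test (adjusted p = 0.221 to 0.283). Bull 1, the bull with the most PPP1R3C, had the least MYH7 among bulls (6474 CPM). The part of fibre type in the values of PPP1R3A and PPP1R3C was not tested.

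**Figure D5:**
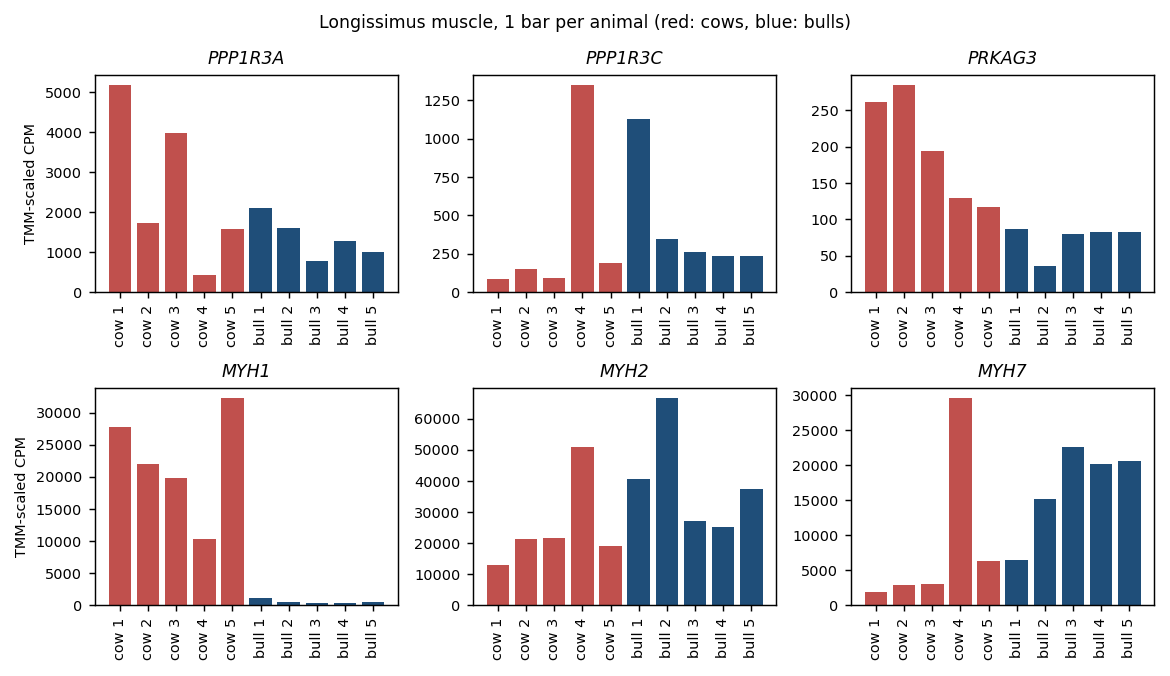
TMM-scaled CPM in longissimus muscle (vertical axis from 0) of 2 glycogen genes, PPP1R3A and PPP1R3C, the AMPK subunit gene PRKAG3 and 3 myosin heavy chain genes, 1 bar for each of 5 cows (red) and 5 bulls (blue). Cow 4 has the lowest PPP1R3A (433) and the highest PPP1R3C (1351) and MYH7 (29546) of all 10 animals.

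GYG1, PHKG1, GYS2 and GBE1 were not called by sex in any tissue. GYG1 in muscle was at 422, 551, 650, 502 and 532 CPM in cows and at 871, 559, 775, 568 and 667 in bulls (log2 fold change 0.38, SE 0.27, adjusted p = 0.647). PHKG1 in fat was at 4.63, 10.2, 6.64, 26.3 and 3.94 CPM in cows and at 7.69, 6.09, 5.68, 3.45 and 4.56 in bulls (-0.95, SE 0.55, adjusted p = 0.759), its highest value being that of cow 4. GYS2 in liver was at 698, 523, 900, 185 and 495 CPM in cows and at 663, 411, 181, 1580 and 709 in bulls (0.35, SE 0.49, adjusted p = 0.983). The estimates of GBE1 in the 4 tissues were -0.34 to 0.16. Of 36 exact two-sided permutation tests of the mean log2(CPM + 1), 6 had an unadjusted p under 0.05. This test was run on the members only, so the share over all genes is not known. Besides PYGM in pituitary (0.0159), these were GYG1 in muscle (0.0476), PHKG1 in pituitary (0.0238) and PYGL in liver (0.0317) and pituitary (0.0159). The last was GYS1 in liver (0.0476), on at most 1 read per library. The smallest p that 5 against 5 animals can give is 0.00794.

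Of the partner genes reported, 1 was called by sex within a tissue. PRKAG3 was in muscle at 261, 285, 194, 130 and 117 CPM in cows and at 87.4, 35.3, 80.4, 82.5 and 82.1 in bulls, without overlap (-1.42, SE 0.35, adjusted p = 0.0233). It was not called by the quasi-likelihood test (adjusted p = 0.244), and with 1 animal left out it lost its call in 8 of 10 fits. The 34 other genes for synthesis, phosphorylase kinase, protein phosphatase 1 and glycolysis were tested by sex in each tissue. Of these, 0 were called by the likelihood ratio test, the quasi-likelihood test or DESeq2. The likelihood ratio test called 0.114% to 0.745% of all genes in a tissue. It gave an unadjusted p under 0.05 in 7 of 136 tests, and for 6.88% to 11% of all genes in a tissue. In the model of sex and tissue 0 genes of the pathway lists (50 with a row) were called by the likelihood ratio test or DESeq2. The likelihood ratio test called 1.69% of all genes. Of the pathway genes 7 had an unadjusted p under 0.05, as 16.7% of all genes did. The marker genes MYL2 (2.27, SE 0.45, adjusted p = 0.00225), TNNC1 (1.40, SE 0.36, adjusted p = 0.0222), CGA (1.20, SE 0.34, adjusted p = 0.0432) and the T cell gene CD3E (-1.10, SE 0.28, adjusted p = 0.0197) were called by the likelihood ratio test. By the quasi-likelihood test MYL2 alone of these 4 was called (adjusted p = 0.0191, and 0.0585 to 0.082 for the others).

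Whether the effect of sex differed between tissues was tested with the 3 interaction terms together (edgeR likelihood ratio test), which called 0 of 9 members and 0.335% of all genes. An unadjusted p under 0.05 was found for 8.58% of all genes and for 2 members, PYGM (0.00688, adjusted p = 0.261) and PYGL (0.00704, adjusted p = 0.263). Neither the quasi-likelihood test nor DESeq2 called a member. A sex difference of PYGM particular to the pituitary was therefore not shown.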

How the data were processed

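Total RNA of each tissue was extracted with TRIzol and sequenced as poly(A) paired-end libraries. The authors trimmed the reads with Trimmomatic, aligned them to bosTau7 with TopHat2 and Bowtie2, and deposited the HTSeq read count of each gene per sample, a raw count without normalization. The counting mode and strand setting are not given in the sources used here. Rows for reads outside genes and a row without a gene name (0.114% to 2.69% of the reads assigned to genes) were left out. A sample's group was taken from its labelled sex and tissue. The 5 replicates of a group are labelled as separate animals, so p-values of sex within a tissue measure the spread between animals. The main models over the 40 samples had no term for the animal. Their p-values for sex, tissue and interaction treat the tissues of an animal as independent samples. Samples with the same ear tag are labelled as the same animal, although the sex genes of the liver library labelled bull 3 went against this. With animals taken as labelled, deviations from the group means had median correlations of 0.0282 to 0.324 between tissues. The same replicate number in the 2 sexes is only a name and pairs nothing.

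TMM factors were computed over the 13148 genes that had 1 read or more in any sample. Models were fitted with edgeR 4.0.16 in R 4.3.3. Sex was tested within each tissue (10 samples) and with tissue as a covariate (40 samples) by the likelihood ratio test, which the study's methods use, and tissues were compared by the quasi-likelihood test. P-values were adjusted by Benjamini and Hochberg over all genes. Log2 fold changes are bulls over cows, with a prior count of 0.125, and standard errors come from the fitted dispersion. Scripts were tested on simulated data. Alternatives were the other edgeR test, DESeq2 1.42.0, RLE factors, filterByExpr, voom (limma 3.58.1), the animal as a block, each sex alone and each animal left out. Library sizes without TMM factors were added as an alternative after the data were seen. Shares and ratios of reads carry counting error only in addition to the spread between animals, and a count of 0 allows up to 3 reads (0.132 to 0.793 CPM).

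The members and gene lists were chosen with earlier results of these data known. By rule, the text names all members, every listed gene called by sex, at most 4 listed genes per list by size of difference between the tissue in which their member is highest and the next, the 3 genes most like each member, and sex label genes. PYGB, PPP1R3B, PHKA2 and GAPDH levels were added after values were seen. Of 63 listed pathway genes 50 had a row. Some genes that this rule names are not reported here. Symbols of all 9 members matched RefSeq genes of ARS-UCD2.0, used for overlaps only.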

Additional observations from a re-analysis of the deposited data

Results flagged for a closer look

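In 12 of 68 groups of 5 animals the highest or lowest value of a member stood off by more than 0.71 of the group's range (Dixon's ratio). Chance gives about 1 in 20 for normally distributed values, but untransformed CPM were used here. The share over all genes was not computed, so an excess among the members is not shown. The 12 groups are listed as a description only. PPP1R3C accounted for 5 of them: cow 4 in muscle at 1351 CPM (next 192), cow 5 in pituitary at 8.89 (next 3.16), and bull 1 in muscle at 1130 (next 349), in fat at 57.8 (next 31.6) and in pituitary at 7.76 (next 3.26). In liver bull 1 was at 319 CPM and bull 3 at 403. PYGM stood off in the liver of cow 5, at 3.42 CPM (next 1.15), where ACTA1 was also highest among cows (16.7). PYGL was highest in the liver of bull 5 (2174 CPM, next 1446) and lowest in the muscle of bull 3 (17.2 CPM, 65 reads, next 46.3), the muscle library with the fewest reads (5173092) and the lowest ALB (3.44 CPM). GBE1 was lowest in the fat of bull 5 (10.2 CPM, next 34.1), the library with low USP9Y. PHKG1 was highest in the fat of cow 4 (26.3 CPM, next 10.2). In pituitary GYS2 of bull 1 (0.566 CPM) rested on 7 reads. GYS1 of bull 4 (0.0441 CPM) rested on 1 read beside 0 in the other bulls, which fixes its ratio at 1.

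The interaction of labelled sex and tissue was called for 2 listed genes that are no glycogen genes (edgeR likelihood ratio test). TNNT3, a fast troponin, had log2 fold changes of 1.80 in pituitary and 1.94 in liver but -0.60 in muscle and -0.97 in fat (adjusted p = 0.0427). The quasi-likelihood test did not call TNNT3 (adjusted p = 0.364). XIST had -2.39 in liver and -10.12, -10.21 and -12.21 in fat, muscle and pituitary (adjusted p = 0.000455). In liver the library labelled bull 3 held 1401 CPM of XIST, against 0.283 to 0.936 in the other bulls. A fit of XIST without that library is not given here.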

How the results depend on the processing

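The member called by sex in pituitary, PYGM, was not called by the quasi-likelihood test (0 members) or with library sizes alone (0), and the count ranged from 0 to 1 with an animal left out, as it did in muscle (PPP1R3C without cow 4) and over the tissues (PPP1R3A without cow 4, or 1 with library sizes alone, -1.21, adjusted p = 0.0255). The counts of members called between tissues, both directions together, stayed within 1.5 times under every alternative run. By direction, 2 members in place of 1 were lower in muscle than in fat with library sizes alone or in bulls alone, and 0 in place of 1 lower in fat than in pituitary in bulls alone. Without an animal, log2 fold changes of sex ranged from -0.16 to 0.60 for GYS2 in liver, -0.03 to 0.40 for GBE1 in fat and -0.45 to 1.79 for PPP1R3C in muscle, and tissue differences from -0.17 to 0.06 for GBE1 (muscle over pituitary) and -0.14 to 0.32 for PPP1R3A (liver over pituitary), none of these tissue differences being called. Library sizes alone moved the median of all genes from between -0.13 and -0.02 to between -0.92 and -0.82 where muscle or liver was compared with fat or pituitary, and the share of calls higher in the first tissue from 44.5% to 18.7% (muscle and fat), 47.3% to 20.3% (muscle and pituitary), 44.8% to 23.7% (liver and fat) and 43.7% to 22.3% (liver and pituitary). The share higher in bulls moved from 74.5% to 57.1% in pituitary and from 19.8% to 5.16% over the tissues. On that scale uncalled differences reversed for PYGL (-0.61) and GYS2 (-0.14) between muscle and pituitary and for PPP1R3A (-0.71) and GBE1 (-0.47) between liver and pituitary, and GBE1 lost its call between muscle and fat (0.44). Within a sex, uncalled differences reversed for GBE1 between muscle and pituitary (0.12, bulls), PPP1R3A between liver and pituitary (-0.76, bulls) and between fat and pituitary (0.35, cows) and PHKG1 between fat and pituitary (-0.04 in bulls, called in cows at 1.37). With the animal as a replicate block the liver minus pituitary difference of PYGM was called (-1.02), and no other call of a member between tissues changed. The causes were not tested. Of 1028 alternatives of 57 further member differences not given by value, 44 changed sign, with 0 called in the changed direction, and 5 of the edgeR or DESeq2 fits changed a call. CPM per kb was not run, for want of gene lengths of the build. Counts of at most 14 reads limit PPP1R3A outside muscle, GYS2 in muscle and pituitary, and GYS1 everywhere.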
